A study of Homo sapiens with 9 samples.

Results

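The sites described here are methylated CCCGGG sites that lie close to an unmethylated one in the genome of HEK293T cells, a human embryonic kidney line with the SV40 T antigen. A border site was an autosomal site with a value in all 9 libraries, a mean over the 9 libraries from 20 to 95%, and at least 1 other such site with a mean under 5% within 1000 bases. The rule found 2071 border sites, 7.56% of the 27401 autosomal sites of 20 to 95% and 3.47% of the 59751 sites with all 9 values. The remaining 25330 autosomal sites of 20 to 95%, which had no site under 5% within 1000 bases, are called away sites. The cells carried pIRES plasmids for TET1-FL or TET1-ALT, or the empty vector, with 3 libraries in each group, and genomic DNA was taken on day 4 after transient transfection. All 3 groups are therefore transfected cells of 1 line. The labels do not give the share of cells that took up a plasmid, so each percentage may average over cells with and without it. TET1 itself was not measured in the data used here. Replicates are numbered in the labels, with no word on whether each was a culture of its own. A p-value here reflects the spread between libraries, those of the groups compared in permutation tests and all 9 in limma. Part or all of that spread may be technical. The sites were thus chosen by measured values, their own 9-library mean and that of a neighbour, and not by group labels. Levels and distances are therefore descriptions, while differences between groups were not used by the rule.

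In mammalian genomes most CpGs are methylated, and the main exceptions are CpG-rich stretches, often at promoters, that stay unmethylated. Methylation changes from low to high at the edges of such stretches, sometimes called shores. TET enzymes oxidise 5-methylcytosine, which can lead to its loss. Full-length TET1 has a CXXC domain that binds unmethylated CpGs, which makes the edges of unmethylated stretches a place of interest for it, and a shorter form of TET1 known in the literature starts downstream of that domain. Digital restriction enzyme analysis of methylation (DREAM) reads methylation at CCCGGG alone. SmaI cuts that sequence when its CpG is unmethylated, XmaI then cuts the methylated copies, and the ends that the 2 enzymes leave can be told apart by sequencing.

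These 6 promoters, chosen after their values were seen, carry borders within or beside their CCCGGG sites and show what such a change looks like in sequence. RefSeq promoter windows run from 250 bases before a transcription start to 50 bases after it, and each line is the 250 bases before the start (GRCh38.p14), 5′ to 3′ on the gene's strand, with CCCGGG, which reads the same on both strands, in capitals. CCCGGG was present in 7353 of 35116 whole windows, those 50 bases included, or 20.9%. The lines come from chr7:45921273-45921522 on the minus strand (IGFBP3), chr1:2628506-2628755 on the plus strand (MMEL1-AS1), chr1:7784041-7784290 on the plus strand (PER3), chr20:50190580-50190829 on the plus strand (CEBPB), chr21:45972720-45972969 on the plus strand (LOC101928796) and chr22:50058299-50058548 on the minus strand (TTLL8).
IGFBP3: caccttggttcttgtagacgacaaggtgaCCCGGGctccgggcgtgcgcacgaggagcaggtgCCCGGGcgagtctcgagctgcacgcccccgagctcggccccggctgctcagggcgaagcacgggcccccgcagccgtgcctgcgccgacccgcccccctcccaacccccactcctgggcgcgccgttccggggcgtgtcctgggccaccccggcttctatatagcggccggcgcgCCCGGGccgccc
MMEL1-AS1: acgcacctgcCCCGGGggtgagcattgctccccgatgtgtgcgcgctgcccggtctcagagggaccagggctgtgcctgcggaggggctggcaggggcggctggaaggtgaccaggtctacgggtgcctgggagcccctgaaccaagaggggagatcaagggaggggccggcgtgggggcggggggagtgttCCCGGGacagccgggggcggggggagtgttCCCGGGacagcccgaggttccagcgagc
PER3: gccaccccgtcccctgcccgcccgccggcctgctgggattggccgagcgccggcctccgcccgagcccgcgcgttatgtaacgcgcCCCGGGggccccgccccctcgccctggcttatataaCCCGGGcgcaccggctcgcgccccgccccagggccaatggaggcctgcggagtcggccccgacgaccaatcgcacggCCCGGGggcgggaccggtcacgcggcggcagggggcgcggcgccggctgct
CEBPB: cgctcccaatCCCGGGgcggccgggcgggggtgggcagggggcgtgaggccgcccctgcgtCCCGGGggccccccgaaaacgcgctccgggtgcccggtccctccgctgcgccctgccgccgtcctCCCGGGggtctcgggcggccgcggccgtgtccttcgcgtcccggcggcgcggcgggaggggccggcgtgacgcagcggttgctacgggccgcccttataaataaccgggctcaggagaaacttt
LOC101928796: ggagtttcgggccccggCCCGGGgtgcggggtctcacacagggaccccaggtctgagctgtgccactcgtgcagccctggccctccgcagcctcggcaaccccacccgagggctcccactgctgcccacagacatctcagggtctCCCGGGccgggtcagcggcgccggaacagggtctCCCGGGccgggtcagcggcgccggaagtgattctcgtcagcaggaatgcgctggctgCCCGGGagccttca
TTLL8: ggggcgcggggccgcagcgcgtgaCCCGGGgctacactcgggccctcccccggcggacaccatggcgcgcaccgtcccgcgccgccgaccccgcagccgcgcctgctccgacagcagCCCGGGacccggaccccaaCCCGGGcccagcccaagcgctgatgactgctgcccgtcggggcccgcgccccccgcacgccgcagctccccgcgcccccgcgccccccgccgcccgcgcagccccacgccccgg
The deposited sites are placed on hg19, and the promoters were tied to them without coordinates, by the exact spacing of at least 3 CCCGGG in a window. Of 374 windows with at least 3 CCCGGG, 312 matched exactly 1 place among all listed sites, and all 312 matches lay on the chromosome that RefSeq names, which the search had not used. Positions below give the first base of CCCGGG relative to the transcription start, which is 0.

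IGFBP3, which encodes a carrier of insulin-like growth factors in serum, has a border inside the printed promoter. Its 3 CCCGGG in print order averaged 29.4% at position -221, 18.7% at -187 and 1.18% at -12 over the 9 libraries, so methylation was lower toward the start within the printed bases. The border site at -221 had 29.2%, 27.3% and 31.3% in TET1-FL libraries, 27.0%, 29.9% and 29.3% in TET1-ALT libraries and 29.6%, 30.4% and 31.1% in empty vector libraries, and all 3 groups overlapped. The promoter of MMEL1-AS1, an antisense RNA gene, had the same order, with 37.5% at -240, 3.70% at -58 and 1.13% at -28. At -240 the values were 37.6%, 37.1% and 36.0% in TET1-FL libraries, 37.7%, 37.4% and 35.4% in TET1-ALT libraries and 38.9%, 38.9% and 38.6% in empty vector libraries. Both TET1 groups lay below the empty vector there without overlap, with differences of -1.93 percentage points in TET1-FL and -1.95 in TET1-ALT. At the MMEL1-AS1 border sites at -469 and 925, TET1-FL overlapped the empty vector, with differences of -4.33 and -0.287 points. TET1-ALT differed by -4.63 points without overlap at -469 and by -0.707 points with overlap at 925. At -28 TET1-FL was higher than the empty vector without overlap, by 0.337 points.

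In PER3, a gene of the circadian clock, the border lay downstream of the start. The printed sites at -128 and -51 did not have all 9 values. The promoter site at -164 averaged 0.416% and the site at 40 averaged 0.154%, whereas the next sites averaged 48.8% at 223 and 94.9% at 611. At 223 the levels were 49.2%, 47.1% and 48.0% in TET1-FL libraries, 49.0%, 48.7% and 45.6% in TET1-ALT libraries, and 49.3%, 52.5% and 49.98% in empty vector libraries, so both TET1 groups lay just below the empty vector. At 611 TET1-FL overlapped the empty vector, with a difference of -2.19 points, and TET1-ALT differed by -2.26 points without overlap. CEBPB encodes a transcription factor of the C/EBP family. Of the 3 CCCGGG in its printed promoter, those at -240 and -124 averaged 0.0778% and 0.0711%, and the remaining one is not given here. Its border stood farther upstream. Methylation there was 0.143% at -449, 2.22% at -621 and 27.4% at -739, where the libraries ran from 22.7% to 33.0% in TET1-FL, from 21.2% to 33.3% in TET1-ALT and from 26.3% to 32.8% in the empty vector, so all groups overlapped.

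The last pair of printed promoters was itself methylated. Of the 4 printed CCCGGG in LOC101928796, those at -233 and -105 averaged 82.1% and 47.0%, and the remaining ones are not given here. The sites at 43 and 320 averaged 6.80% and 0.611%. In TTLL8, of the tubulin tyrosine ligase-like family, the sites at -226, -133 and -114 averaged 73.7%, 88.9% and 91.5% and the site at -5 averaged 96.3%, while the unmethylated neighbour lay upstream at -925, with 0.939%. Between them the level was 42.5% at -586 and 88.2% at -453. At -586 TET1-FL libraries had 43.1%, 42.9% and 41.4%, TET1-ALT libraries 40.6%, 42.9% and 37.5%, and empty vector libraries 43.2%, 44.9% and 46.1%, so that both TET1 groups lay below the empty vector. In that promoter region methylation therefore covered the start and ended upstream of it.

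Over all 36 matched windows with a border site within 1000 bases of a matched CCCGGG, which belong to 35 gene symbols, there were 52 distinct border sites, of which 7 lay inside a window. Inside these windows 67 CCCGGG had all 9 values, and 55 of them averaged under 5%. Of all 59751 sites with all 9 values, 22785 did. The windows were kept for a nearby border site, which by rule has a site under 5% within 1000 bases, so the choice favours such sites. ZNF853, a zinc finger gene, had 5 sites under 5% from -218 to 253, 3 of them inside the window, and then 35.2%, 50.4% and 73.5% at 428, 551 and 764. NGEF, a guanine nucleotide exchange factor gene of neurons, had borders on both sides of its start, with 91.1% at -555, 0.193% at -132, 0.0844% at -35, 2.51% at 448, 93.0% at 703 and 89.9% at 851. Levels thus climbed over several sites downstream of ZNF853, whereas NGEF went from under 3% to over 90% between adjacent measured sites downstream.

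**Figure D1:**
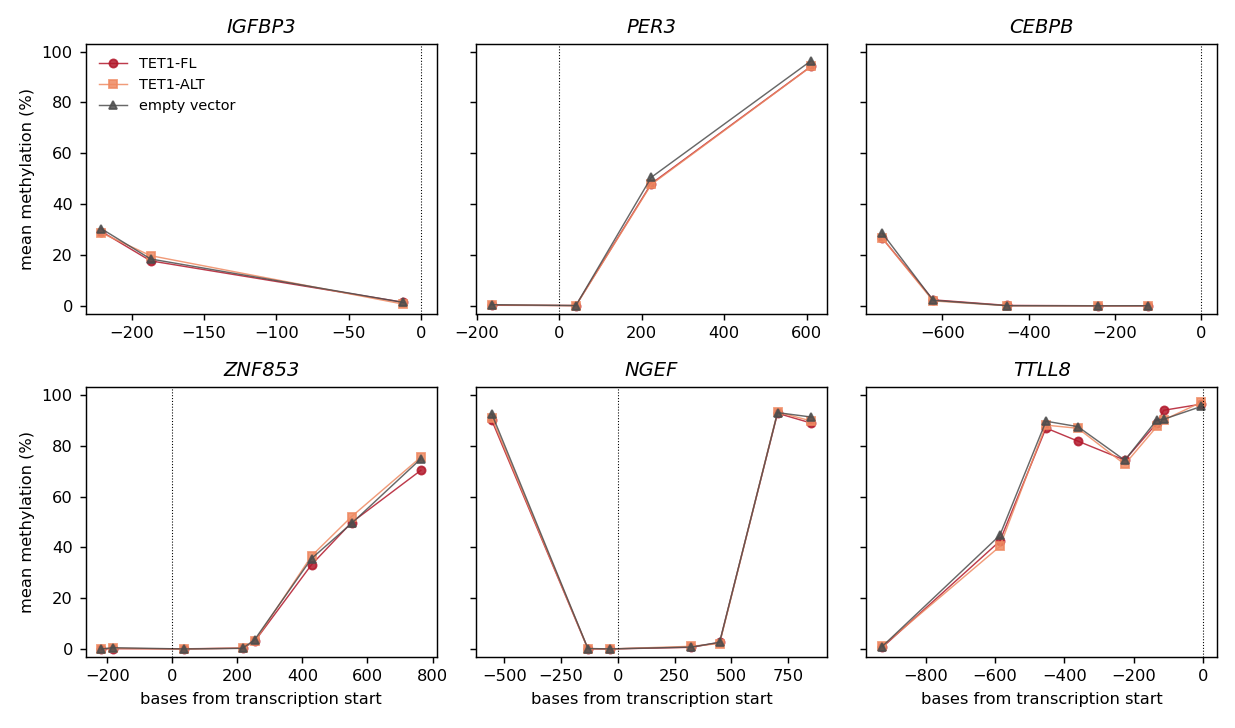
Mean methylation (%) of each CCCGGG with all 9 values against its distance in bases from the transcription start (dotted line), for IGFBP3, PER3, CEBPB, ZNF853, NGEF and TTLL8; points are means of 3 libraries per group. The change from low to high methylation lies at the same sites in TET1-FL, TET1-ALT and the empty vector, for example between 40 and 223 in PER3, where the sites averaged 0.154% and 48.8%.

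Border sites spanned the whole range that the rule allowed. Their median level was 57.2%, with quartiles of 35.5% and 79.9%, against a median of 79.95% with quartiles of 60.5% and 89.4% at away sites. From 20 to 35% there were 506 border sites, or 24.4%, whereas 8.08% of away sites were in that class. From 80 to 95% there were 514 border sites, or 24.8%, whereas 49.96% of away sites were. By chromosome, border sites made up from 4.33% (chromosome 21) to 9.64% (chromosome 18) of the sites of 20 to 95%. Border sites also stood in denser CCCGGG surroundings, with a median of 3 other listed CCCGGG within 1000 bases against 2 at away sites. The rule itself asks for 1 such neighbour at border sites. The median SD between replicates was close in both kinds of site in each level class, for example 2.44 points at border sites and 2.54 points at away sites of 20 to 35%, and 2.04 points against 2.01 points at 80 to 95%.

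The distance to the nearest unmethylated site had a median of 463 bases, with quartiles of 313 and 615 and a range from 6 to 999. Levels were higher with distance, as a description over sites that share libraries. The mean over the 9 libraries was 36.7% at 26 sites within 100 bases, 45.1% at 313 sites over 100 and up to 250 bases, 55.1% at 832 sites up to 500, 62.5% at 605 sites up to 750 and 69.2% at 295 sites up to 1000. The same order held along single stretches more often than not. Among 484 pairs of consecutive border sites on the same side of 1 unmethylated neighbour, the farther site was the higher one in 347, or 71.7%. Of 779 border sites with unmethylated sites on 1 side only and another complete site within 1000 bases on the far side, which by construction was not under 5%, the site beyond was higher in 540, or 69.3%. The sites beyond had a median of 79.0%, against 58.1% at the border sites themselves. The rule caps the level of border sites, whereas the sites beyond had no such cap. They could also lie below the range of border sites, as 45 did at 5 to 20%. The share of 69.3% and the difference in medians may therefore come in part from the rule.

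**Figure D2:**
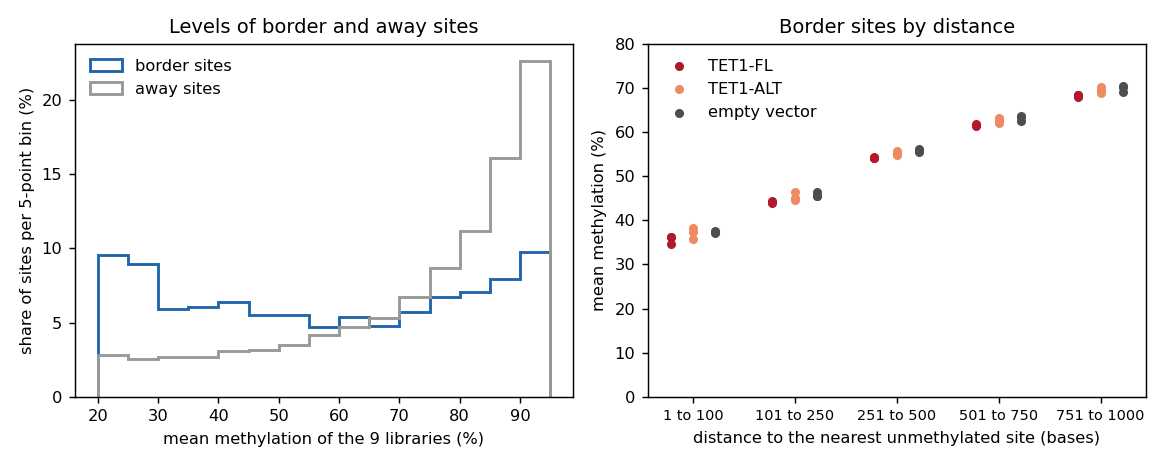
Left, the share (%) of 2071 border sites and 25330 away sites in each 5-point class of mean methylation; right, mean methylation (%) of border sites in each library by distance in bases to the nearest unmethylated site, 1 point per library. Away sites pile up at high levels and border sites do not, and in all 9 libraries the mean is higher in each successive distance class, from about 36.7% within 100 bases to 69.2% beyond 750 bases over the 9 libraries.

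Most borders had a single flank. Unmethylated sites lay on only 1 side of 2040 border sites and on both sides of 31. There was 1 unmethylated site within reach at 1203 border sites, or 58.1%, and 4 or more at 137, with a highest number of 10. For 928 border sites, or 44.8%, the nearest listed CCCGGG of any kind was the unmethylated neighbour. The 2071 border sites had 1547 distinct nearest unmethylated neighbours, so that some share one. Those neighbours had a median level of 0.730%, and 57.4% of them were under 1%, whereas the median over all autosomal sites under 5% was 0.197% and 87.4% were under 1%.

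The step from the nearest unmethylated neighbour to the border site had a median of 55.998 points. Steps of at least 80 points numbered 485, and 26 of these were spanned within 250 bases. Of the border sites that averaged at least 80%, the one nearest to an unmethylated site, chr19:55975913 (hg19), averaged 94.5% only 112 bases from a site at 4.80%. That neighbour averaged 4.86% in TET1-FL, 3.39% in TET1-ALT and 6.14% in the empty vector, the last above the 5% limit. The border site had 95.9%, 93.8% and 92.5% in TET1-FL libraries, 95.2%, 92.6% and 98.8% in TET1-ALT libraries, and 98.4%, 91.5% and 92.1% in empty vector libraries, and the groups overlapped. Next by distance were chr9:136435882, with 85.3% at 117 bases from a site at 3.36%, and chr20:1294125, with 91.8% at 125 bases from a site at 0.326%. The sites at chr21:35445391, chr22:29469661 and chr12:52762778 averaged 86.7%, 87.4% and 88.0% at 131, 138 and 139 bases from their neighbours. Of these 6 sites, chr22:29469661 was the one where TET1-FL and the empty vector did not overlap, with 84.5%, 86.0% and 87.1% in TET1-FL libraries against 88.5%, 88.8% and 87.7% in empty vector libraries. The unadjusted limma p of that difference was 0.0387 and the adjusted p 0.442.

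Border sites often stood in runs. Autosomal sites of 20 to 95% with gaps of at most 1000 bases were chained into loci, and 1545 of 15907 loci held border sites. Of these, 1173 held 1 border site, 372 held more, and the highest number was 7. The locus of 7 sites, chr22:48885773-48886429, was not a smooth gradient. Going away from its unmethylated neighbour of 3.13%, the sites at 226, 320, 450, 624, 721, 868 and 882 bases averaged 68.0%, 21.2%, 85.6%, 64.5%, 20.4%, 70.3% and 78.8%. Low and high sites alternated there. The low sites were low in all 3 groups, with means of 19.0% in TET1-FL, 20.6% in TET1-ALT and 24.1% in the empty vector at 320 bases, and of 20.2%, 18.8% and 22.1% in the same groups at 721 bases.

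Another locus, chr16:1194981-1195957, had its unmethylated neighbour of 1.22% within the run. Upstream the sites at 168 and 511 bases averaged 20.1% and 92.3%, and downstream the sites at 212, 277, 404 and 465 bases averaged 23.9%, 30.5%, 76.9% and 87.7%, so both flanks climbed. The last of the 3 loci named, chr16:3096614-3097254, was high throughout, with 75.4% at 202 bases, 65.9% at 277 bases and from 76.4% to 92.6% beyond.

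The first comparison asked whether border methylation differed between cells given TET1-FL and cells given the empty vector. The mean over the 2071 border sites was 56.5%, 56.8% and 56.7% in TET1-FL libraries, against 58.7%, 58.3% and 57.8% in empty vector libraries. All 3 TET1-FL libraries lay below all 3 empty vector libraries. The group means were 56.6 ± 0.146% and 58.2 ± 0.437% (SD, n = 3 each), a difference of -1.61 percentage points. All pairwise differences between libraries lay between -2.18 and -1.03, a range that covers a constant shift with 90% confidence. The two-sided exact permutation p was 0.1, the lowest that 3 libraries against 3 can give. On all 22 autosomes the border mean was lower in TET1-FL, on 19 of them without overlap, with differences from -2.20 points on chromosome 2 to -0.877 on chromosome 21. The autosomes share the same libraries, so they are a description and not replicates.

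**Figure D3:**
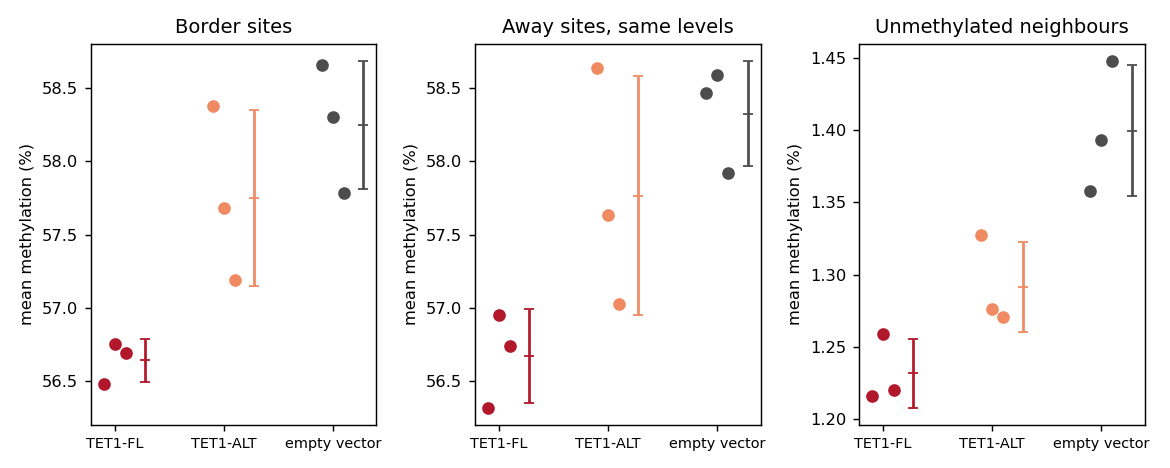
Mean methylation (%) per library (points) with group mean and SD (bars, n = 3) for border sites, for away sites weighted to the levels of the border sites, and for the nearest unmethylated neighbours of border sites; the axes do not start at 0. In all 3 panels every TET1-FL library lies below every empty vector library, and the first 2 panels look alike.

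No difference in this respect was detectable between border sites and methylated sites with no unmethylated site nearby. Away sites weighted to the same levels in 5-point classes differed by -1.66 points between TET1-FL and the empty vector. The difference at border sites minus that at away sites was 0.0499 points, with pairwise values from -0.380 to 0.445 and an exact permutation p of 0.8. By level, border sites differed by -1.28 points at 20 to 35%, -1.91 at 35 to 50%, -2.18 at 50 to 65%, -1.65 at 65 to 80% and -1.32 at 80 to 95%. Away sites in those classes differed by -1.46, -1.90, -2.12, -1.94 and -1.18 points. In both kinds of site TET1-FL and the empty vector did not overlap in any of the 5 classes.

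**Figure D4:**
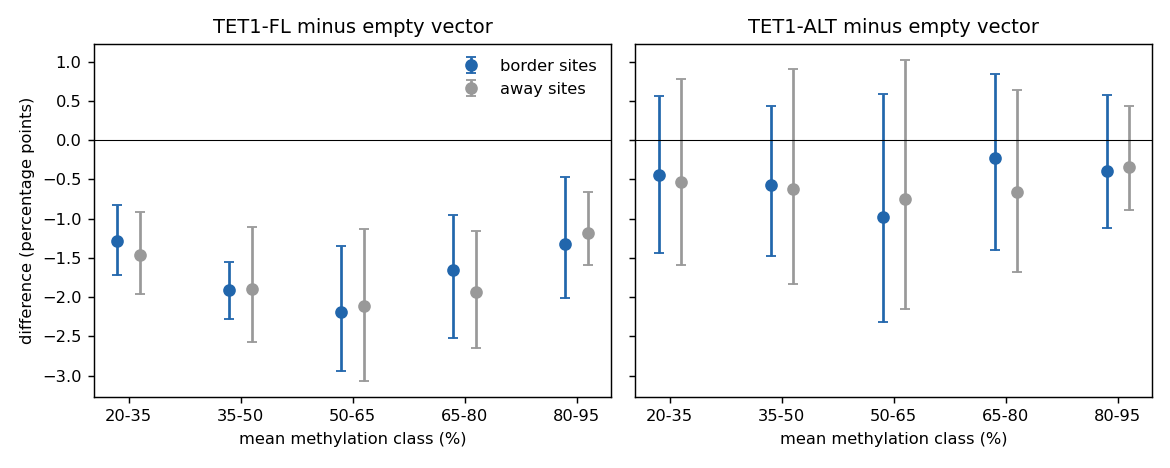
Difference in mean methylation (percentage points) of TET1-FL minus the empty vector (left) and TET1-ALT minus the empty vector (right) by class of mean methylation (%), for border sites and away sites; bars run from the lowest to the highest pairwise difference between libraries. Border and away sites lie close together in each class, and all TET1-FL bars stay below 0 while all TET1-ALT bars cross it.

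No difference with distance from the unmethylated neighbour was detectable either. TET1-FL minus empty vector was -1.69 points within 100 bases, -1.61 over 100 and up to 250, -1.67 up to 500, -1.53 up to 750 and -1.58 up to 1000 bases. Border sites within 250 bases minus those beyond 500 bases at like levels differed between the groups by -0.000502 points, with pairwise values from -0.838 to 0.812 and an exact permutation p of 1. The number of unmethylated neighbours gave values of the same size, -1.54 points with 1, -1.72 with 2, -1.88 with 3 and -1.27 with 4 or more. Border sites with unmethylated sites on both sides, 31 in number, differed by -1.01 points with overlapping groups.

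The unmethylated side of the border also had lower values in TET1-FL, at levels close to 0. The neighbours had a median of 0.730%, no deposited value was exactly 0, and any effect of the unknown read depth was not tested. The 1547 nearest unmethylated neighbours averaged 1.22%, 1.26% and 1.22% in TET1-FL libraries, against 1.36%, 1.39% and 1.45% in empty vector libraries. The groups did not overlap, and the difference was -0.168 points with pairwise values from -0.231 to -0.0985 (exact permutation p = 0.1). All autosomal sites under 5%, which averaged 0.482% in TET1-FL and 0.554% in the empty vector, differed by -0.0727 points. Without weighting by level, the neighbours minus other autosomal sites under 5% gave -0.102 points for TET1-FL minus the empty vector (exact permutation p = 0.1). Weighted to like levels, the other sites differed by -0.167 points, and the contrast between the 2 kinds of site was -0.000322 points, with pairwise values from -0.0642 to 0.0774 (exact permutation p = 1).

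No single border site passed the test between TET1-FL and the empty vector. With limma over all 59751 sites, 0 border sites had an adjusted p under 0.05, as did 0.0% of all sites, and the lowest adjusted p among border sites was 0.287. At an unadjusted p under 0.05, limma gave 255 border sites lower and 20 higher in TET1-FL, against 9.72% of all sites lower and 1.11% higher. The 255 make up 12.3% of border sites, and 12.2% of away sites met the same rule. TET1-FL libraries all lay below empty vector libraries at 342 border sites, or 16.5%, against 14.9% of all sites and 16.8% of away sites, and all lay above at 32, or 1.55%, against 2.13% of all sites. The mean was lower in TET1-FL at 1559 border sites, or 75.3%, against 66.4% of all sites and 75.2% of away sites. The median difference was -1.55 points at border sites, -1.49 at away sites and -0.183 over all sites. In each of these measures border sites and away sites had values close to each other.

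At 20 border sites TET1-FL was lower without overlap by at least 10 points, and at 4 it was higher, which is 0.966% and 0.193% of border sites, against 0.32% and 0.117% of all sites and 0.62% and 0.213% of away sites. The largest negative difference was at chr12:125049910, 593 bases from its unmethylated neighbour. It had 36.6%, 42.7% and 45.5% in TET1-FL libraries, 45.5%, 53.3% and 44.2% in TET1-ALT libraries, and 47.8%, 50.9% and 71.4% in empty vector libraries. The difference of -15.1 points (SE 6.07, limma adjusted p = 0.443) was -7.76 points without empty vector replicate 3, the library at 71.4%. At chr18:72123659, which averaged 84.6% at 558 bases from its neighbour, the replicates were tighter. There TET1-FL libraries had 74.1%, 81.4% and 80.7%, TET1-ALT libraries 84.9%, 83.7% and 80.7%, and empty vector libraries 94.8%, 88.6% and 92.3%. Both TET1 groups lay below the empty vector, by -13.1 points in TET1-FL (SE 2.41, limma adjusted p = 0.359) and -8.76 points in TET1-ALT (limma adjusted p = 0.673).

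At chr16:85497146, which had 5 unmethylated sites within reach, TET1-FL libraries had 57.1%, 57.3% and 60.6%, TET1-ALT libraries 61.4%, 65.9% and 71.7%, and empty vector libraries 68.7%, 71.3% and 77.1%. The TET1-FL difference was -14.1 points (SE 3.06, limma adjusted p = 0.381), and no TET1-FL library overlapped either other group. The site at chr22:38303190 was low in TET1-FL alone. Its values were 42.5%, 54.7% and 52.5% in TET1-FL libraries, against 69.7%, 63.3% and 59.0% in TET1-ALT libraries and 67.0%, 60.4% and 65.4% in empty vector libraries. It differed by -14.4 points from the empty vector and by -14.1 points from TET1-ALT, with limma adjusted p of 0.394 and 0.836. The remaining 4 of the 8 largest negative differences were -14.8 points at chr3:128841321, -14.7 at chr5:139283121, -14.5 at chr19:1112643 and -13.2 at chr3:126074285. Single libraries carried much of 2 of these, since the value was -9.56 at chr5:139283121 without TET1-FL replicate 1 and -8.50 at chr3:126074285 without empty vector replicate 2.

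The 4 sites on the other side were few enough to name in full. At chr1:38511922 the values were 31.1%, 43.3% and 37.9% in TET1-FL libraries, 25.2%, 36.6% and 34.2% in TET1-ALT libraries, and 13.4%, 21.2% and 19.1% in empty vector libraries. Both TET1 groups lay above the empty vector, by 19.5 points in TET1-FL (SE 4.02, limma adjusted p = 0.381) and 14.1 points in TET1-ALT (limma adjusted p = 0.673). At chr10:3110871 the values were 32.6%, 23.9% and 28.9% in TET1-FL libraries, 26.1%, 28.4% and 27.3% in TET1-ALT libraries, and 13.5%, 23.1% and 9.77% in empty vector libraries. The differences there were 12.98 points in TET1-FL and 11.8 points in TET1-ALT. The other two, chr21:45821815 and chr22:17565297, differed by 12.5 and 10.8 points between TET1-FL and the empty vector.

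**Figure D5:**
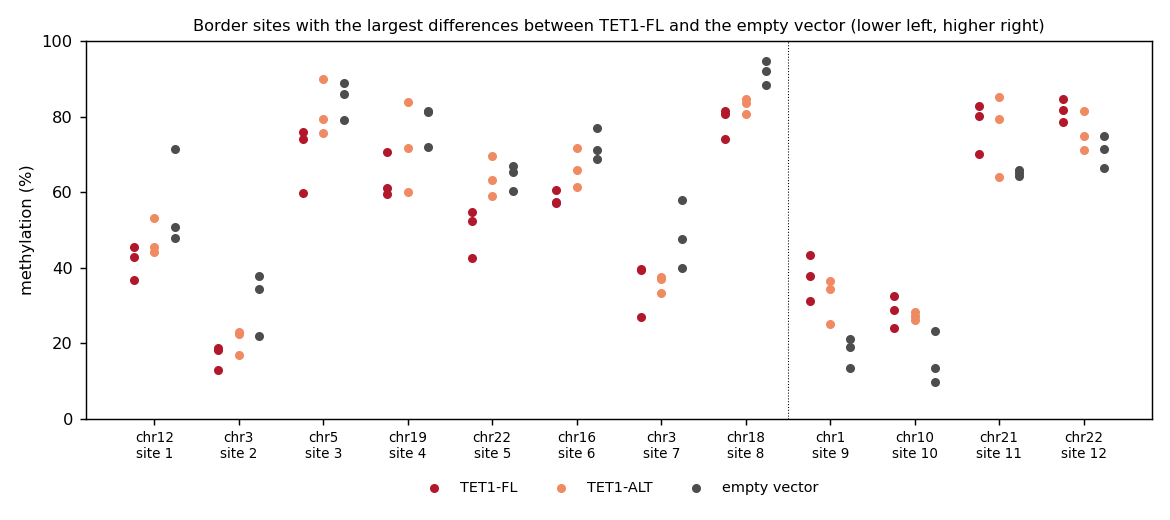
Methylation (%) in each of the 9 libraries at the 8 border sites with the largest negative and the 4 with the largest positive difference between TET1-FL and the empty vector among non-overlapping sites, 1 point per library, in the order of size within each side. Empty vector libraries spread widely at several of them, for example from 47.8% to 71.4% at site 1, and none passed the adjusted threshold.

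Averaging neighbouring sites did not yield a call. Of 7954 loci with at least 2 sites, 495 held a border site, and limma called 0 of them, as it did 0.0% of all loci, with a lowest adjusted p of 0.195. At an unadjusted limma p under 0.05, 92 border loci were lower in TET1-FL and 5 were higher, which is 18.6% and 1.01%, against 17.0% and 0.83% of all loci. Without TET1-FL replicate 1 the 92 became 61, and without TET1-ALT replicate 2 the 5 became 3. The locus mean was lower in TET1-FL at 414 border loci, or 83.6%, against 83.2% of all loci. Among the 4 with the smallest p was chr10:102988761-102988909, 2 border sites that averaged 82.3%, 82.7% and 82.4% in TET1-FL libraries, 86.3%, 84.4% and 85.1% in TET1-ALT libraries, and 86.6%, 87.0% and 86.5% in empty vector libraries. The difference between TET1-FL and the empty vector was -4.21 points (SE 0.943, limma adjusted p = 0.195), and the replicates of each of these groups lay within less than 1 point. At chr5:95768183-95768209, also 2 border sites, TET1-FL libraries had 35.2%, 32.0% and 35.7%, TET1-ALT libraries 38.8%, 37.7% and 37.3%, and empty vector libraries 42.1%, 39.0% and 40.8%, a difference of -6.33 points between TET1-FL and the empty vector with the same limma adjusted p. The other two of the 4 were the loci of the higher sites on chromosomes 10 and 1, with 16.8 and 13.3 points.

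The border sites next to named promoters gave values of the same size. Of the 52 sites, 39, or 75%, had a lower mean in TET1-FL than in the empty vector. Among all sites the share was 66.4%, and among all border sites 75.3%. Without overlap 10 were lower, or 19.2%, against 14.9% of all sites and 16.5% of border sites. The number higher without overlap was 0, against 2.13% of all sites and 1.55% of border sites. Their mean was 59.2% in TET1-FL, 59.8% in TET1-ALT and 60.7% in the empty vector, and the median difference between TET1-FL and the empty vector was -1.97 points. The largest of the 10 stood at 381 from a start of TSPAN11, a tetraspanin gene, in hg19 at chr12:31080066, 400 bases from its unmethylated neighbour. It had 77.8%, 76.0% and 79.2% in TET1-FL libraries, 80.9%, 83.1% and 82.9% in TET1-ALT libraries, and 84.6%, 83.5% and 86.9% in empty vector libraries. The 3 groups did not overlap, and the differences from the empty vector were -7.31 points in TET1-FL and -2.68 in TET1-ALT. The same site also lies near a start of LOC124902911. In HTR6, a serotonin receptor gene, the site at 944 differed by -5.14 points in TET1-FL against the empty vector. In ZNF853 the outermost border site, at 764, had 72.4%, 69.7% and 68.8% in TET1-FL libraries, 72.8%, 78.7% and 74.96% in TET1-ALT libraries, and 74.5%, 74.7% and 75.3% in empty vector libraries, a difference of -4.53 points for TET1-FL and 0.647 for TET1-ALT. The inner 2 border sites of ZNF853 overlapped between all groups.

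The second comparison set TET1-ALT against the same empty vector libraries, so it shares its controls with the first. Border sites averaged 58.4%, 57.7% and 57.2% in TET1-ALT libraries and 58.7%, 58.3% and 57.8% in empty vector libraries, and the groups overlapped. The difference was -0.499 points, with pairwise values from -1.47 to 0.595 and an exact permutation p of 0.3. It was -0.218 points without TET1-ALT replicate 3, -0.296 without empty vector replicate 1 and -0.816 without TET1-ALT replicate 1, the TET1-ALT library with the highest mean. Border sites and away sites of like level differed in this contrast by 0.0631 points, with pairwise values from -0.444 to 0.452 (exact permutation p = 0.8). By distance the values were -0.227 points within 100 bases, -0.444, -0.638 and -0.421 in the next 3 classes and -0.352 in the farthest, with overlap in each. Near minus far border sites gave 0.0210 points, with pairwise values from -0.714 to 1.03 (exact permutation p = 1). The border mean was lower in TET1-ALT on 18 of 22 autosomes, which share the same libraries, on 2 of them without overlap.

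At the unmethylated neighbours, again at levels close to 0, the groups did not overlap. The neighbours averaged 1.33%, 1.28% and 1.27% in TET1-ALT libraries, against 1.36%, 1.39% and 1.45% in empty vector libraries. The difference was -0.108 points, with pairwise values from -0.177 to -0.0303 (exact permutation p = 0.1). Minus other autosomal sites under 5% it was -0.0630 points without weighting by level (exact permutation p = 0.2). Against other unmethylated sites of like level it was -0.00399 points (pairwise from -0.0848 to 0.0498, exact permutation p = 1).

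With limma 0 border sites passed an adjusted p under 0.05, as did 0.0% of all sites, and the lowest adjusted p was 0.652. At an unadjusted limma p under 0.05, 106 border sites were lower in TET1-ALT and 35 higher, or 5.12% and 1.69%, against 5.49% and 1.73% of all sites and 4.41% and 1.8% of away sites. TET1-ALT lay below the empty vector without overlap at 175 border sites, or 8.45%, against 10.1% of all sites and 7.6% of away sites. It lay above at 72, or 3.48%, against 3.14% of all sites and 3.17% of away sites. The mean was lower at 58.5% of border sites, against 56.3% of all sites and 59.8% of away sites. Of 495 border loci limma called 0, as it did 0.0% of all loci. The locus mean was lower in TET1-ALT at 321 of them, or 64.8%, against 64.3% of all loci. At an unadjusted limma p under 0.05, 27 were lower and 9 higher, against 4.7% and 1.37% of all loci, and the 27 became 16 without TET1-ALT replicate 2, without TET1-ALT replicate 3 or without empty vector replicate 2. The 9 became 5 without TET1-ALT replicate 1 or replicate 2.

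Among all sites 0.177% were lower and 0.0971% higher in TET1-ALT by at least 10 points without overlap, and among away sites 0.34% and 0.189%. By that rule TET1-ALT was lower at 13 border sites and higher at 3, or 0.628% and 0.145%. At the first, chr1:98519070, the libraries were far apart within each group, with 72.9%, 65.8% and 53.0% in TET1-ALT libraries against 73.2%, 79.98% and 97.3% in empty vector libraries. The difference of -19.6 points (limma adjusted p = 0.696) was -12.7 without empty vector replicate 3. At chr16:66969291, only 184 bases from its neighbour, TET1-ALT libraries had 17.7%, 19.9% and 20.2%, against 25.0%, 24.2% and 48.0% in empty vector libraries, and the difference of -13.1 points was -5.31 without empty vector replicate 3. Those at chr3:126074285 and chr19:17444633 were -12.6 and -12.0 points, and became -7.84 without empty vector replicate 2 and -5.56 without TET1-ALT replicate 3. Beside the higher sites on chromosomes 1 and 10 already given, the third higher site, chr14:67980988, had 41.8%, 44.4% and 47.7% in TET1-ALT libraries against 39.5%, 20.8% and 31.6% in empty vector libraries. Its difference of 14.0 points was 9.06 without empty vector replicate 2. Of the 7 differences named for TET1-ALT, 5 thus moved by over 1.5 times without 1 library.

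Set directly against each other, TET1-FL and TET1-ALT did not overlap at border sites. The means were 56.5%, 56.8% and 56.7% in TET1-FL libraries and 58.4%, 57.7% and 57.2% in TET1-ALT libraries (56.6 ± 0.146% and 57.7 ± 0.601%, SD, n = 3 each). The difference was -1.11 points, with pairwise values from -1.91 to -0.432 and an exact permutation p of 0.1, the lowest possible. The border mean was lower in TET1-FL on all 22 autosomes, which share the same libraries, on 14 without overlap. Border sites and away sites of like level differed in this contrast by -0.0132 points (pairwise from -0.358 to 0.415, exact permutation p = 0.9), and near and far border sites by -0.0215 points (exact permutation p = 1). The unmethylated neighbours, at levels close to 0, differed by -0.0595 points, with pairwise values from -0.111 to -0.0116 (exact permutation p = 0.1). All autosomal sites under 5% differed by -0.0233 points with overlap. Neighbours minus other unmethylated sites of like level gave 0.00367 points, with pairwise values from -0.0463 to 0.0945.

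Of single border sites, limma called 0, as it did 0.0% of all sites, with a lowest adjusted p of 0.830. At an unadjusted limma p under 0.05, 143 were lower in TET1-FL and 16 higher, or 6.9% and 0.773%, against 4.46% and 1.1% of all sites and 6.68% and 1.02% of away sites. The 16 became 25 without TET1-ALT replicate 1. TET1-FL lay below TET1-ALT without overlap at 241 border sites, or 11.6%, against 7.36% of all sites. It did so at 2777 of 25330 away sites, a share close to that of border sites. TET1-FL lay above at 31 border sites, or 1.5%, against 1.94% of all sites and 2.01% of away sites. Border loci gave 0 calls, against 0.0% of all loci, and 26 lower and 2 higher at an unadjusted limma p under 0.05, or 5.25% and 0.404%, against 7.68% and 0.566% of all loci. The locus mean was lower in TET1-FL at 387, or 78.2%, against 76.0% of all loci. The 26 became 15 without TET1-ALT replicate 1 and 42 without TET1-ALT replicate 3. The 2 became 7 without TET1-ALT replicate 1, 5 without TET1-FL replicate 3 or empty vector replicate 1, 4 without TET1-FL replicate 2 and 1 without TET1-ALT replicate 3.

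At least 10 points without overlap separated TET1-FL from TET1-ALT at 8 border sites with TET1-FL lower and 1 with it higher. These are 0.386% and 0.0483% of border sites, against 0.105% and 0.0435% of all sites and 0.205% and 0.0908% of away sites. After chr22:38303190 the next was chr15:90896293, with 31.3%, 26.3% and 32.8% in TET1-FL libraries, 47.1%, 43.7% and 39.5% in TET1-ALT libraries, and 29.7%, 36.8% and 37.0% in empty vector libraries. There TET1-ALT stood above both other groups, with -13.3 points for TET1-FL minus TET1-ALT (SE 2.86, limma adjusted p = 0.830). The site at chr21:34442805 lay only 6 bases from its unmethylated neighbour of 3.12%, the shortest distance of all border sites, and averaged 39.9%. It had 38.0%, 34.6% and 22.4% in TET1-FL libraries, 44.5%, 39.9% and 50.5% in TET1-ALT libraries, and 34.2%, 50.7% and 44.2% in empty vector libraries. The difference of -13.3 points was -8.66 without TET1-FL replicate 3. At chr16:4367582 it was -11.9 points. The higher site, chr2:12858924, had 53.8%, 55.96% and 50.4% in TET1-FL libraries, against 37.8%, 43.1% and 39.7% in TET1-ALT libraries, a difference of 13.2 points, and empty vector libraries spread from 38.4% to 60.7%.

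Just inside the lower level were sites of 20% at chr1:2349346 and chr22:48973643, and just outside it sites of 19.996% at chr2:128433086 and 19.999% at chr18:76739577. At the upper level, 94.98% and 94.99% at chr19:7564897 and chr13:41496783 were inside and 95.1% and 95.2% at chr12:14922337 and chr2:7005170 outside. For distance, chr14:24898213 at 996 bases and chr1:3311192 at 999 bases were inside, and chr16:85204937 at 1004 bases and chr14:36983695 at 1005 bases outside. For the level of the neighbour, chr16:85204608 and chr16:85204191 were inside with a lowest neighbour of 4.99%, and chr20:44910933 and chr20:44912067 outside with one of 5.01%.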

How the data were processed

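DNA methylation was measured by DREAM in 9 libraries of HEK293T genomic DNA, 3 each for TET1-FL, TET1-ALT and the empty vector, grouped by their titles. Per the labels' protocols, the authors size selected fragments and amplified them with 18 PCR cycles. They took the share of methylated reads per CCCGGG and corrected it with spiked-in standards, as the labels' design text states. Deposited values are percent methylated, on hg19 per the submitters' processing notes. The aligner is not given in the sources used here. Each value rests on at least 20 reads, per the labels; beyond that the depth is unknown, and no interval resting on it is given. Libraries had values at 61549 to 72340 of 382289 listed sites. The logistic model planned for read counts could not be used on percentages.

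From the percentages, library means were compared by two-sided exact permutation tests (20 assignments of 3 against 3). limma 3.58.1 in R 4.3.3 was fitted per site, and per locus of sites with gaps of at most 1000 bases, to all 9 libraries with trend and robust moderation and no replicate term. Benjamini-Hochberg adjustment ran over 59751 sites or 7954 loci, with a threshold of 0.05. Scripts were tested on simulated data. Away sites were weighted to border sites in 5-point level classes, and other unmethylated sites to the neighbours in classes of 0.5 points. Named sites were the largest non-overlapping differences of at least 10 points, at most 1 per 1000 bases (8 lower and 6 higher for TET1-FL, 4 each way otherwise), with the 4 loci of smallest p, the 6 border sites of at least 80% nearest to an unmethylated site, the 3 loci with the most border sites and the sites at each threshold. Genes came from RefSeq promoters matched by the spacing of CCCGGG. That match and the comparison with other unmethylated sites were added after seeing the data, and the promoters printed or described were chosen after their values were seen. The border sites, rules and tests were chosen with earlier results of these data known.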

Additional observations from a re-analysis of the deposited data

How the results depend on the processing

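Differences are in percentage points. For border means they kept their direction in all 15 alternatives of each comparison, from -1.95 to -1.40 for TET1-FL minus the empty vector, -0.83 to -0.218 for TET1-ALT minus the empty vector and -1.39 to -0.792 for TET1-FL minus TET1-ALT. Leaving out 1 library gave -1.84 to -1.40, -0.816 to -0.218 and -1.39 to -0.792. Differences of the unmethylated neighbours also kept their direction, and 0 border sites and 0 border loci were called in any alternative.

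The comparisons near 0 changed sign, and the cause was not tested. Border minus away, TET1-FL minus the empty vector, was -0.0160 with neighbours under 2%, -0.0678 without weighting by level, -0.179 against away sites with at least 3 listed neighbours, and -0.0547 to 0.182 leaving out 1 library. For TET1-ALT minus the empty vector it was -0.0238 with neighbours under 2%, -0.00641 with 500 bases, and -0.0415 to 0.195 leaving out 1 library. For TET1-FL minus TET1-ALT it was 0.00781 with neighbours under 2%, 0.0360 under 10%, 0.0362 with 500 bases, 0.00615 with 2000 bases, 0.00378 at levels of 20 to 80%, and -0.134 to 0.0766 leaving out 1 library.

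Near minus far, TET1-FL minus the empty vector, was 0.107 with neighbours under 2%, 0.213 at levels of 30 to 90%, 0.274 with medians, and -0.279 to 0.232 leaving out 1 library. For TET1-ALT minus the empty vector it was -0.165 with neighbours under 10%, -0.00321 at 20 to 80%, -0.0293 without weighting by level, and -0.257 to 0.207 leaving out 1 library. For TET1-FL minus TET1-ALT it was 0.0665 with neighbours under 10%, 0.125 at 30 to 90%, and -0.203 to 0.211 leaving out 1 library.

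Unmethylated neighbours minus other unmethylated sites gave 0.00407 in classes of 0.25 points for TET1-FL minus the empty vector and -0.0388 without weighting by level for TET1-FL minus TET1-ALT, both added after seeing the data. Without that weighting it was -0.102 for TET1-FL minus the empty vector and -0.0630 for TET1-ALT minus the empty vector. Leaving out 1 library gave -0.0247 to 0.0190, -0.0185 to 0.0171 and -0.0207 to 0.0163 for TET1-FL minus the empty vector, TET1-ALT minus the empty vector and TET1-FL minus TET1-ALT.

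Deviations of same-numbered libraries from their group means correlated between -0.0167 and 0.0126 over sites, so site by site the numbers showed no pairing. Such a correlation removes a shift shared by all sites of a library, so it cannot show whether library means were paired. Border means fell from replicate 1 to 3 in TET1-ALT (58.4%, 57.7% and 57.2%) and the empty vector (58.7%, 58.3% and 57.8%). In TET1-FL they did not, with 56.5%, 56.8% and 56.7%. With the replicate block the border mean differences were -1.61, -0.499 and -1.11 points for TET1-FL minus the empty vector, TET1-ALT minus the empty vector and TET1-FL minus TET1-ALT, with an exact sign-flip p of 0.25 each, the lowest that 3 pairs can give. The block changed no call. With 3 libraries a group, permutation tests cannot pass 0.05, and with depth unknown the precision of single sites rests on the replicates alone.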

Other observations

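Sites that meet the same rule outside the 2071 were left out of the comparisons above. On chromosome X 65 such sites averaged 37.0%, 37.8% and 37.0% in TET1-FL libraries, 38.5%, 37.7% and 37.3% in TET1-ALT libraries, and 38.1%, 38.6% and 38.3% in empty vector libraries. TET1-FL lay below the empty vector without overlap, by -1.04 points (exact permutation p = 0.1), and TET1-ALT overlapped it at -0.476 points.

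A further 187 border sites had values in at least 2 libraries of each group but not in all 9. Over the values present they averaged 59.0%, 59.5% and 60.2% in TET1-FL libraries, 61.0%, 61.1% and 61.0% in TET1-ALT libraries, and 60.3%, 61.4% and 60.9% in empty vector libraries. TET1-FL differed from the empty vector by -1.33 points without overlap and TET1-ALT by 0.183 points with overlap. The sites behind each library's mean are not the same here, since each library lacks some of them.

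Border sites with a range over 20 points between the lowest and highest of the 9 libraries numbered 139, or 6.71%, against 4.96% of away sites. The median range at border sites was 8.29 points.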
